A study of Mus musculus with 20 samples.

Results

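The 10 genes described here are 3 FoxO transcription factors, Foxo1, Foxo3 and Foxo4, and 7 genes known as FoxO targets, Sesn1, Sesn3, Klf2, Klf6, Bcl6, Ccng2 and Txnip. The members and the gene lists used below were chosen with earlier results of these data known. Counts above the share of all genes are thus no independent support. Probe sets were picked by symbol: a probe set belonged to a gene when the platform annotation gave that symbol alone. Where a gene had several, its brightest probe set on average over the 20 arrays stood for it. All 10 of 10 had a named probe set, out of 22180 genes with one, and all 10 were among the 16638 genes bright enough to be tested. Foxo1 had 2 probe sets and each of the other members had 1.

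FoxO proteins are forkhead transcription factors that sit in the nucleus and switch genes on when growth factor signalling is low. Insulin or cytokine receptors activate PI3K, mTORC2 and AKT, and AKT and SGK kinases phosphorylate FoxO proteins so that they leave the nucleus. mTORC1, the kinase complex that contains Raptor, dampens this same PI3K branch by feedback on insulin receptor substrates, and sestrins, themselves FoxO targets, restrain mTORC1 through the GATOR complexes. In blood formation FoxO factors are known for keeping stem and progenitor cells quiescent and protected from oxidative stress.

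The study compared wild-type (WT) mice with CreER-Raptor mice, which carry floxed alleles of Rptor, the gene of Raptor, and a tamoxifen-inducible Cre (labelled CreER-Rptor-flox/flox). All mice were female on a C57BL/6 background. Ages, the promoter of the Cre and its induction are not given in the sources used here, nor is whether each array was a separate animal, so p-values measure the spread between these arrays, which may be in part technical. Common myeloid progenitors (CMP, 3 arrays per genotype) and granulocyte-macrophage progenitors (GMP, 3 per genotype) were sorted from bone marrow and lysed fresh. The third population, Lin- + MCSF (4 arrays per genotype), was sorted lineage-negative marrow kept 12 h with 10 ng/ml M-CSF, the growth factor of macrophages. Values are log2 signals, so a difference of 1 is a doubling of signal.

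The labels were first checked against the targeted gene. Rptor signal was 8.64 ± 0.11 (SD, n = 3) in WT CMP and 8.34 ± 0.13 (n = 3) in CreER-Raptor CMP, a difference of -0.29 (adjusted p = 0.163, limma). The Rptor differences in GMP (-0.17, adjusted p = 0.465) and in Lin- + MCSF (-0.18, adjusted p = 0.305) did not pass the test either. The sources used here do not place this probe set relative to the floxed part, so it does not check the deletion. Kit, Cd34, Fcgr3 and the other 7 genes of the progenitor list averaged 10.4 to 10.9 on the CMP and GMP arrays. On the Lin- + MCSF arrays they averaged 10.11 to 10.29 in WT and 10.33 to 10.46 in CreER-Raptor. The latter overlap the CreER-Raptor CMP arrays, so the list does not fully set the sorted progenitors apart. In CMP 6 of these 10 were lower and 1 higher in CreER-Raptor, with array means of 10.75 to 10.84 in WT and 10.42 to 10.62 in CreER-Raptor. The Lin- + MCSF arrays also carried lymphoid transcripts. Cd3e, a subunit of the T cell receptor complex, was at 7.54 ± 0.43 (n = 4) in WT and 8.27 ± 0.84 (n = 4) in CreER-Raptor. Its group means in the progenitors were 4.76 to 4.94. Of 11 T and NK cell genes 7 were higher and 1 lower in WT Lin- + MCSF than in WT CMP. Against WT GMP 10 were higher and 1 lower. Nkg7 of that list was at 9.91 in WT Lin- + MCSF, against 11.04 in WT CMP and 11.18 in WT GMP. One WT Lin- + MCSF array, replicate 3, stood apart with a mean of 11.4 for 12 neutrophil genes, against 9.96 to 10.3 on the other 3. Array medians lay between 4.76 and 4.91.

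Promoter sequence is shown for 3 members that changed with genotype and whose promoters hold the motifs searched, so that the forkhead-type letters can be seen in place. The stretches come from RefSeq windows on GRCm38.p6 that run from 250 bases before to 50 bases after an annotated start, and 9 of the 10 members had a window, with 11 windows in all. G and C made up 51.7% of the second Bcl6 window and 61.3% to 75% of the other member windows. The median over all windows was 52.7%, so the shares of all windows given below are not matched for base content. Capitals mark the motif matches.
Txnip, chr3:96557806-96557908, + strand: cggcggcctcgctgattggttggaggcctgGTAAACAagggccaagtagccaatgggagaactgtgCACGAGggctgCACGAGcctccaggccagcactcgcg
Ccng2, chr5:93267527-93267572, + strand: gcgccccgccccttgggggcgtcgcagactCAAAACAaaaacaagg
Sesn1, first of 2 starts, chr10:41810585-41810614, + strand: gaaccttctacTGTTTACcagccttttggg
The first capitals in Txnip are the forkhead core GTAAACA, at -121 to -115 from the start, and those in Sesn1 are the same letters on the opposite strand, at 23 to 29 after the start. GTAAACA, searched on both strands, was in these 2 member windows and in 3.65% of all 32851 windows. The capitals in Ccng2 are CAAAACA, the core of the insulin-response element, found in 1 member window and in 6.28% of all windows. The last 2 capital runs in Txnip are a pair of CACGNG letters 5 bases apart, the layout of the carbohydrate response element bound by ChREBP, MondoA and Mlx, at -85 to -69. That pair was in 1 of the 11 member windows and in 0.0487% of all windows (16 of 32851). It was searched knowing that such an element had been described in this promoter. The E-box CACGTG was in a window of Klf6 and of Bcl6 and in 7.15% of all windows. Sesn3, which also changed with genotype, had a window that held none of these motifs. A match describes letters and does not show binding, and GTAAACA and CAAAACA do not share a position in any sequence printed here.

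In progenitors of the CreER-Raptor mice 1 target gene was higher and 3 were lower than in WT, while the 3 FoxO genes themselves passed no genotype test. Txnip was higher in CreER-Raptor CMP and GMP, about 2-fold in each. Sesn1, Sesn3 and Ccng2 were lower in both, by 1.49 to 1.74 fold. In Lin- + MCSF cells none of the 10 passed.

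**Figure D1:**
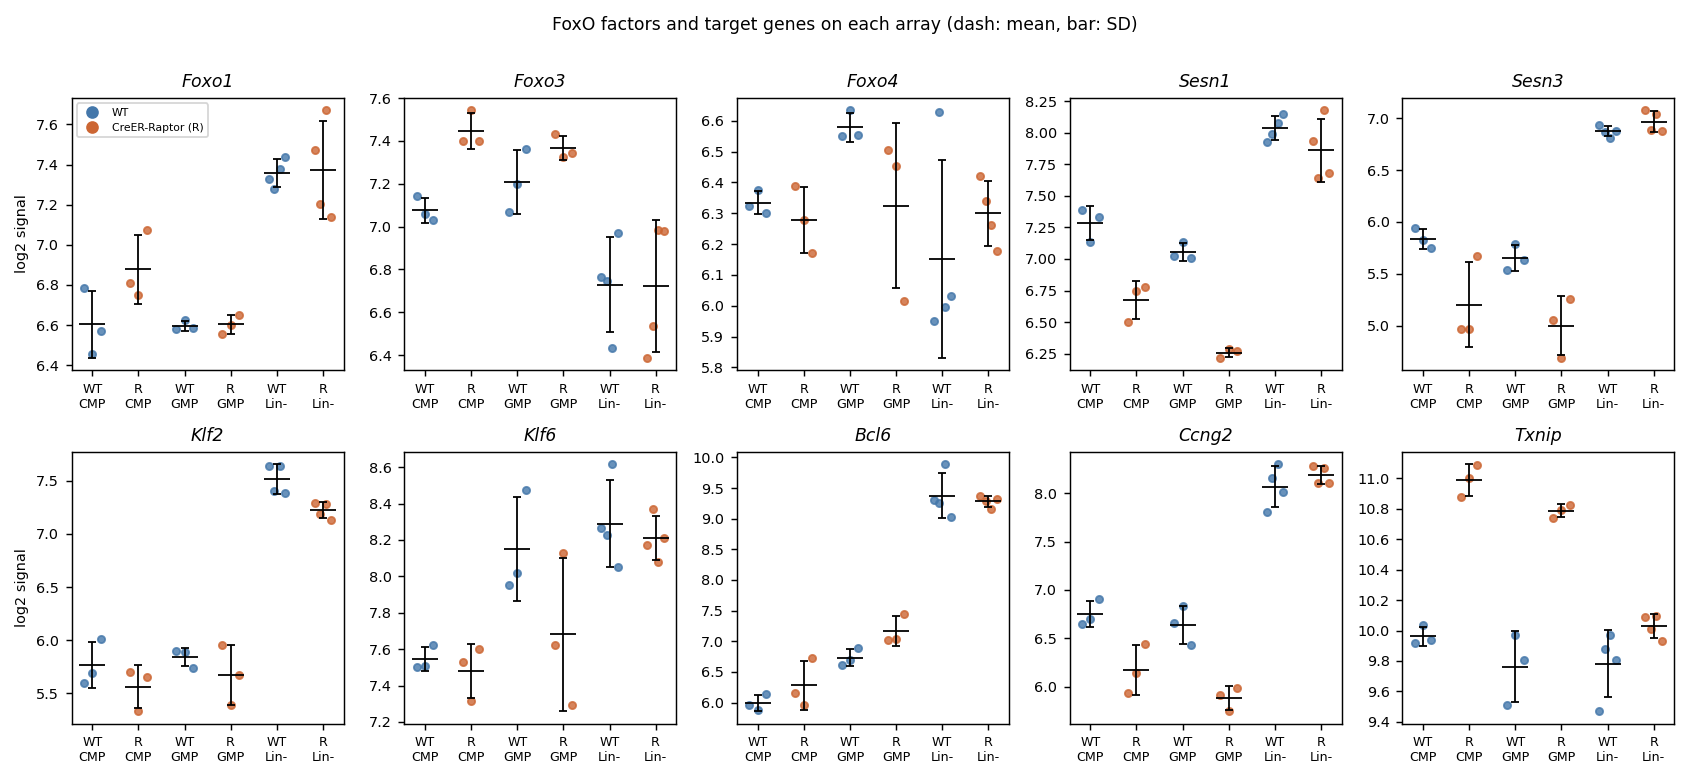
Log2 signal of the 10 genes on each of the 20 arrays (points), with group mean (dash) and SD (bar); blue is WT, orange is CreER-Raptor (R), and each panel has its own vertical axis. The CreER-Raptor CMP and GMP arrays stand above all others for Txnip and below the WT arrays of their population for Sesn1, Sesn3 and Ccng2.

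Txnip encodes the thioredoxin-interacting protein, an arrestin-fold protein that binds thioredoxin and lowers glucose uptake. Its signal was 9.92, 10.03 and 9.94 on the 3 WT CMP arrays and 10.88, 11.00 and 11.09 on the 3 CreER-Raptor CMP arrays. In GMP it was 9.51, 9.97 and 9.81 in WT and 10.74, 10.79 and 10.83 in CreER-Raptor. In both populations every CreER-Raptor array lay above every WT array. The genotype difference was 1.03 ± 0.12 (SE; 2.04-fold; adjusted p = 6.06e-06, limma) in CMP. It was 1.02 ± 0.12 (SE; 2.03-fold; adjusted p = 6.27e-06) in GMP. In Lin- + MCSF the WT arrays were at 9.47, 9.88, 9.97 and 9.80 and the CreER-Raptor arrays at 10.09, 10.01, 10.10 and 9.93, with overlap. The difference there was 0.25 (95% interval 0.02 to 0.47, adjusted p = 0.145). Across the 6 groups Txnip was highest in CreER-Raptor CMP (10.99), then CreER-Raptor GMP (10.79), and these neighbours did not overlap. CreER-Raptor Lin- + MCSF (10.03) followed, without overlap with CreER-Raptor GMP. From there down through the 3 WT groups (9.76 to 9.96), neighbours in the order did not differ beyond their spread.

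The sestrins were lower. Sesn1 encodes a stress-induced protein that binds GATOR2 and restrains mTORC1. It stood at 7.39, 7.13 and 7.33 in WT CMP and at 6.50, 6.75 and 6.77 in CreER-Raptor CMP. In GMP it stood at 7.02, 7.14 and 7.01 in WT and at 6.22, 6.29 and 6.27 in CreER-Raptor. No array overlapped between genotypes in either population. The difference was -0.61 ± 0.13 (SE, adjusted p = 0.00174) in CMP and -0.80 ± 0.13 (SE, adjusted p = 0.000137) in GMP. In Lin- + MCSF the genotypes overlapped (7.93 to 8.15 in WT, 7.64 to 8.18 in CreER-Raptor; difference -0.18, 95% interval -0.40 to 0.05, adjusted p = 0.327).

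Sesn3, a second sestrin, is known as a direct FoxO target that also favours AKT activity through mTORC2. Its signal was 5.94, 5.82 and 5.75 in WT CMP and 4.96, 4.96 and 5.67 in CreER-Raptor CMP, the third array lying just under the WT range. In GMP it was 5.53, 5.79 and 5.63 in WT and 5.05, 4.69 and 5.25 in CreER-Raptor, again without overlap. The differences were -0.64 ± 0.16 (SE, adjusted p = 0.00884) in CMP and -0.65 ± 0.16 (SE, adjusted p = 0.00782) in GMP. The CMP call was lost without CreER-Raptor replicate 1 (-0.52, adjusted p = 0.0656) or replicate 2 (-0.52, adjusted p = 0.0737), and the GMP call without CreER-Raptor replicate 2 (-0.50, adjusted p = 0.0703) or WT replicate 2 (-0.58, adjusted p = 0.0509). In Lin- + MCSF Sesn3 ran from 6.81 to 6.93 in WT and from 6.87 to 7.08 in CreER-Raptor (difference 0.09, 95% interval -0.19 to 0.38, adjusted p = 0.728).

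Ccng2 encodes cyclin G2, an atypical cyclin linked to cell cycle arrest. It was at 6.65, 6.70 and 6.91 in WT CMP and at 5.93, 6.14 and 6.45 in CreER-Raptor CMP. In GMP it was at 6.66, 6.83 and 6.43 in WT and at 5.92, 5.75 and 5.99 in CreER-Raptor. The CreER-Raptor arrays lay below every WT array of their population. The difference was -0.58 ± 0.14 (SE, adjusted p = 0.00828) in CMP and -0.75 ± 0.14 (SE, adjusted p = 0.000885) in GMP. The CMP call was lost without CreER-Raptor replicate 1 (adjusted p = 0.0662) or WT replicate 3 (adjusted p = 0.0562). In Lin- + MCSF the genotypes overlapped, at 7.81 to 8.30 in WT and 8.11 to 8.28 in CreER-Raptor (difference 0.12, 95% interval -0.13 to 0.38, adjusted p = 0.596).

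In CMP, 1 of the 10 genes was called higher, against 6.01% of all 16638 genes, and 3 were called lower, against 5.44%. In GMP the counts were also 1 higher, against 4.37%, and 3 lower, against 7.53%. WT and CreER-Raptor arrays were fully separate for 5 of the 10 genes in CMP, where 30.8% of all genes were, and for 6 of 10 in GMP, where 32.4% were. In Lin- + MCSF 0 of 10 were called by limma, against 6.82% of all genes higher and 5.73% lower. At an unadjusted p under 0.05 there were 2 of 10 there, Klf2 (0.0239) and Txnip (0.0318), and 1 of 10 had no overlap, against 13.9% of all genes. The median genotype change of the members was -0.06 in CMP, -0.21 in GMP and 0.00 in Lin- + MCSF, beside -0.01, 0.02 and 0.01 for all genes. With 3 arrays against 3 an exact two-sided permutation test cannot go below 0.1, and it gave 0.1 for each gene without overlap.

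**Figure D2:**
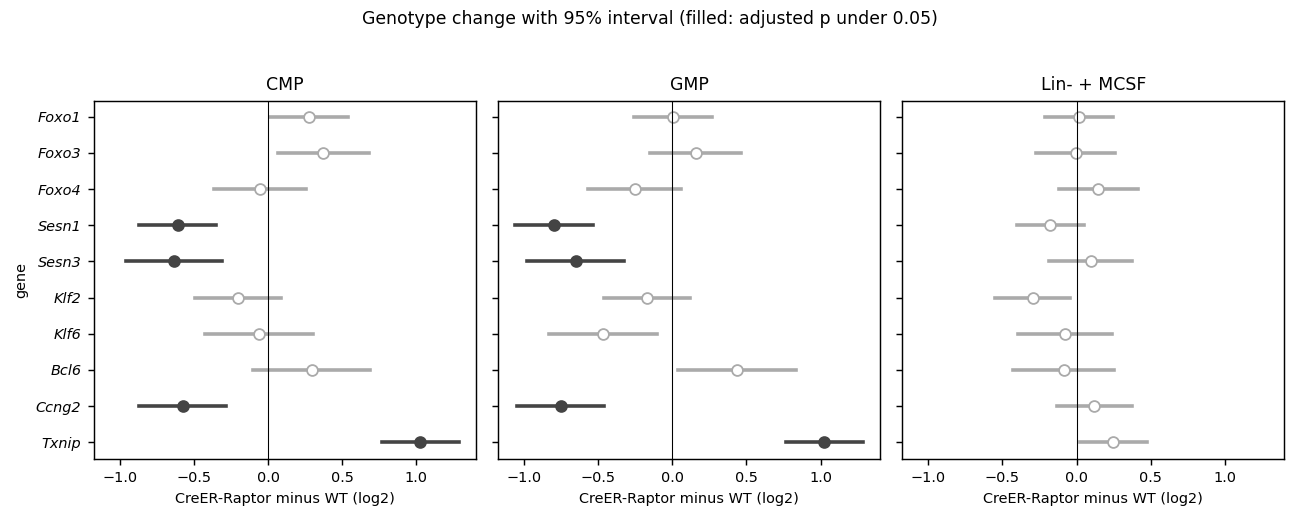
CreER-Raptor minus WT log2 signal of the 10 genes in the 3 populations (points) with 95% intervals (bars); filled dark points passed an adjusted p of 0.05 over all genes. Txnip is to the right and Sesn1, Sesn3 and Ccng2 to the left of 0 in CMP and GMP, and no point is filled in Lin- + MCSF.

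The FoxO genes gave small differences. Foxo3, the factor most tied to stem cell maintenance, was at 7.14, 7.06 and 7.03 in WT CMP and 7.40, 7.54 and 7.40 in CreER-Raptor CMP. These arrays did not overlap, and the difference of 0.37 (95% interval 0.06 to 0.68) missed the threshold (adjusted p = 0.128). It passed in 2 alternative fits, with array weights (adjusted p = 0.0381) and with the CMP arrays fitted alone (adjusted p = 0.0284). In GMP Foxo3 differed by 0.16 (adjusted p = 0.606) and in Lin- + MCSF by -0.01 (adjusted p = 0.983). Foxo1, the family member central to lymphoid gene control, differed by 0.27 in CMP (95% interval 0.01 to 0.54, adjusted p = 0.203), by 0.01 in GMP and by 0.02 in Lin- + MCSF. Its other, dimmer probe set gave 0.06, 0.10 and 0.19, with adjusted p of 0.882, 0.745 and 0.299. Foxo4 differed by -0.05 in CMP, by -0.26 in GMP (adjusted p = 0.329), and by 0.15 in Lin- + MCSF (adjusted p = 0.522). Transcript levels leave out phosphorylation and nuclear exit, through which FoxO proteins are mainly controlled.

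The other 3 targets are transcription factors, and none passed a genotype test. Bcl6, a repressor of cytokine and cell cycle genes, was at 6.61, 6.70 and 6.89 in WT GMP and at 7.01, 7.04 and 7.45 in CreER-Raptor GMP. Its arrays did not overlap, and the difference was 0.44 (95% interval 0.04 to 0.83, adjusted p = 0.16). Klf6, a zinc-finger factor active in macrophages, was at 7.95, 8.02 and 8.48 in WT GMP and at 7.62, 8.13 and 7.29 in CreER-Raptor GMP, where replicate 2 lay inside the WT range. The Klf6 difference was -0.47 (adjusted p = 0.0942), and without that replicate it was -0.69 (adjusted p = 0.0119). Klf2, a factor of lymphocyte quiescence and trafficking, was at 7.64, 7.40, 7.64 and 7.39 in WT Lin- + MCSF and at 7.29, 7.19, 7.28 and 7.13 in CreER-Raptor Lin- + MCSF. These 4 and 4 arrays did not overlap, and the difference of -0.30 had an exact two-sided permutation p of 0.0286, the smallest that 4 against 4 can give, but an adjusted p of 0.122. Klf2 in CMP (-0.21, adjusted p = 0.462) and GMP (-0.17, adjusted p = 0.532) overlapped between genotypes. With array weights the GMP differences of Klf6 (-0.41, adjusted p = 0.00979) and Bcl6 (0.37, adjusted p = 0.0237) passed.

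The test of the difference between populations set the Lin- + MCSF cells apart from the progenitors for part of the members. For Txnip the genotype change in Lin- + MCSF was smaller than in CMP by a difference of -0.78 ± 0.17 (SE, adjusted p = 0.00411) and than in GMP by -0.77 ± 0.17 (SE, adjusted p = 0.00715). Ccng2 differed by 0.70 ± 0.19 (SE, adjusted p = 0.0217) against CMP and by 0.87 ± 0.19 (SE, adjusted p = 0.0073) against GMP. Sesn3 differed by 0.73 (adjusted p = 0.0313) and 0.75 (adjusted p = 0.0406), and Sesn1 by 0.44 against CMP (adjusted p = 0.128) and by 0.62 against GMP (adjusted p = 0.0318). That is 3 of 10 members against CMP, where 7.77% of all genes were called, and 4 of 10 against GMP, where 4.77% were; the comparisons share the Lin- + MCSF arrays. Between GMP and CMP 0 of 10 differed by limma, against 2.50% of all genes, and 0 had an unadjusted p under 0.05, the smallest being 0.119 for Klf6. The Txnip calls held in each fit that left out 1 array, and so did Ccng2 against GMP. Ccng2 against CMP was lost in 3 of 14 such fits, without CreER-Raptor CMP replicate 1 (adjusted p = 0.0833), CreER-Raptor CMP replicate 2 (0.0566) or WT CMP replicate 3 (0.0779). Sesn3 was lost in 6 of 14 against CMP and 11 of 14 against GMP, and Sesn1 against GMP in 8 of 14, with adjusted p reaching 0.12, 0.142 and 0.0945. Repeated quantile normalization also ended the Sesn3 call against CMP (adjusted p = 0.051) and the Sesn1 call against GMP (0.54, adjusted p = 0.0614), and the latter was lost with only the compared groups fitted (adjusted p = 0.0553). The lowest Sesn3 values came without CreER-Raptor CMP replicate 2 (0.61) and CreER-Raptor GMP replicate 2 (0.59).

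Markers of other cells moved with genotype in the same arrays. In CMP 8 of 10 erythroid genes were higher in CreER-Raptor and none lower, with array means of the list at 7.93 to 8.13 in WT and 8.96 to 9.65 in CreER-Raptor. Neutrophil genes were lower for 8 of 12 (8.68 to 8.89 in WT, 7.24 to 7.58 in CreER-Raptor) and monocyte and macrophage genes for 8 of 14, with 1 higher (8.32 to 8.43, 7.49 to 7.69). In GMP 4 of 10 erythroid genes were higher (5.46 to 5.66 in WT, 6.12 to 7.02 in CreER-Raptor), 9 of 14 monocyte and macrophage genes were lower (8.87 to 8.89, 7.79 to 7.92), and of 12 neutrophil genes 5 were lower and 2 higher. Dendritic cell genes were higher for 4 of 8 in CMP (6.25 to 6.37 in WT, 6.95 to 7.27 in CreER-Raptor) and 3 of 8 in GMP (5.76 to 5.81, 6.27 to 6.47), with none of the 8 lower. Cd34, a marker used to sort these progenitors, was itself lower in CreER-Raptor, by a difference of -1.08 in CMP (adjusted p = 2.59e-05) and of -1.37 in GMP (adjusted p = 1.27e-06). Other genes of the progenitor list went other ways. Kit was higher in CMP (0.42, adjusted p = 0.0202) and did not pass in GMP (0.29, adjusted p = 0.123). Fcgr3 was lower in CMP (-0.64, adjusted p = 0.00318) and did not pass in GMP (-0.07, adjusted p = 0.84). Of the 10 genes of that list 2 were higher and 2 lower in GMP. In Lin- + MCSF 7 of 10 erythroid genes and 5 of 11 T and NK cell genes were higher and 11 of 14 monocyte and macrophage genes lower, and of 9 stem and multipotent progenitor genes 5 were higher and 1 lower. Their part in the member differences was not tested, and in such bulk samples fewer cells of a type and less RNA per cell cannot be told apart. Of 11 T and NK cell genes 1 was higher and 1 lower in CMP, and the list means lay close together there (4.90 to 5.17 in WT, 4.91 to 5.07 in CreER-Raptor) and in GMP (4.75 to 4.99, 4.85 to 4.94).

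**Figure D3:**
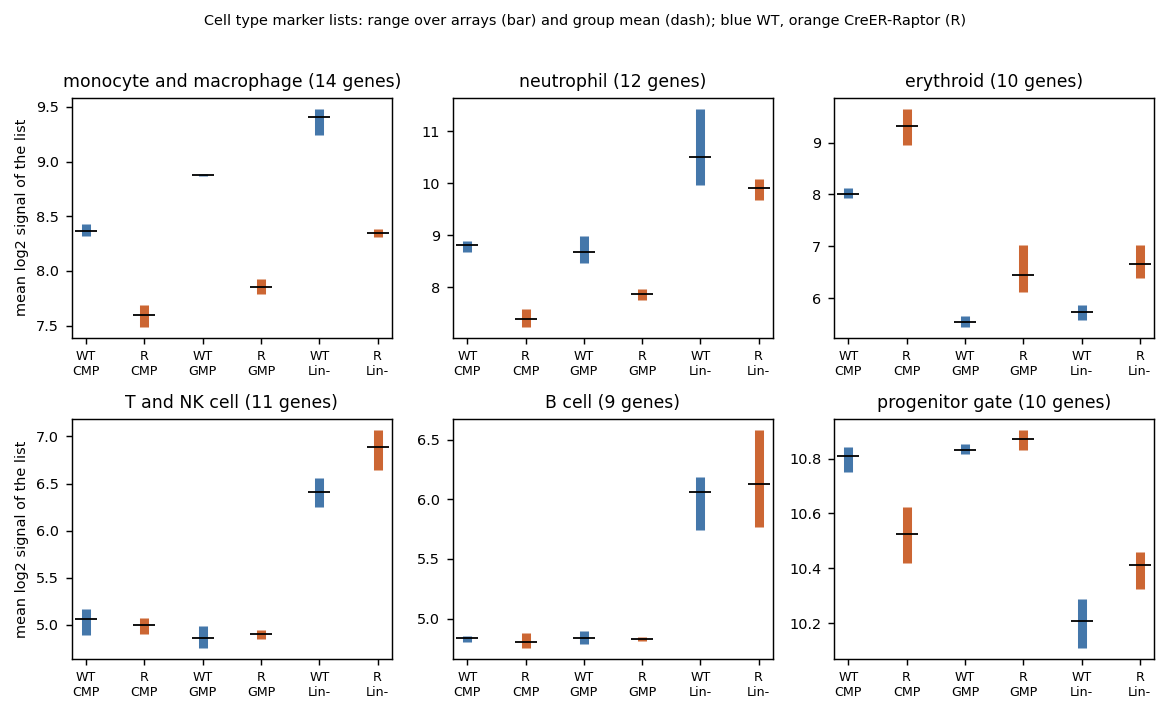
Mean log2 signal of 6 marker lists by group: bars run from the lowest to the highest array, dashes are group means, blue is WT and orange CreER-Raptor (R). List means of erythroid genes are higher and those of monocyte and neutrophil genes lower in CreER-Raptor CMP and GMP. The means of the T and NK cell list and of the B cell list are higher in Lin- + MCSF than in CMP and GMP in both genotypes, though not every gene of these lists is.

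Among WT cells most members differed between the cultured cells and the fresh progenitors. In Lin- + MCSF cells 7 of 10 were higher than in CMP, against 19.6% of all genes, and 1 was lower, against 36.0%. Against GMP 6 were higher (all genes, 20.3%) and 2 lower (all genes, 36.1%). The sort and the 12 h culture with M-CSF cannot be told apart in these comparisons, which share the Lin- + MCSF arrays. The median of all genes was itself lower in Lin- + MCSF, by -0.14 against CMP and -0.14 against GMP, while the members' medians were 0.75 and 0.87. Cyclic loess scaling moved the median of all genes by 0.14 and 0.12, and the share of called genes that were higher from 35.3% to 52.0% against CMP and from 36.0% to 50.5% against GMP.

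Bcl6 had the widest range of the 10, with group means spanning 3.38. It was at 5.96, 5.87 and 6.13 in WT CMP, at 6.61, 6.70 and 6.89 in WT GMP, and at 9.30, 9.26, 9.89 and 9.03 in WT Lin- + MCSF. The Lin- + MCSF arrays lay above every progenitor array, 10.4-fold above CMP (difference 3.38 ± 0.18, SE, adjusted p = 1.94e-12) and 6.23-fold above GMP (2.64 ± 0.18, SE, adjusted p = 7.14e-11). The highest Bcl6 array, replicate 3, is the one with the high neutrophil genes, and without it the differences were 3.21 and 2.47. The T and NK cell list averaged 6.25 to 6.56 on the WT Lin- + MCSF arrays and 4.75 to 5.17 on the WT progenitor arrays, and the neutrophil list 9.96 to 11.4 and 8.46 to 8.97. All 12 neutrophil genes were higher in WT Lin- + MCSF than in each progenitor. The B cell list averaged 5.74 to 6.19 on the WT Lin- + MCSF arrays and 4.78 to 4.89 on the WT progenitor arrays. Of 8 B cell genes tested 6 were higher in WT Lin- + MCSF than in WT CMP and 7 than in WT GMP, with 0 lower by limma. The part of these lists in the differences of Bcl6, Klf2, Foxo1 and the other members was not tested.

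Klf2 was at 5.60, 5.69 and 6.02 in WT CMP and 5.90, 5.89 and 5.74 in WT GMP, against 7.39 to 7.64 in WT Lin- + MCSF. The Lin- + MCSF arrays lay above all those of both progenitors, and Klf2 there was 3.36-fold above CMP (1.75 ± 0.13, SE, adjusted p = 4.27e-10) and 3.19-fold above GMP (1.67 ± 0.13, SE, adjusted p = 6.78e-10). Ccng2 was higher in Lin- + MCSF by 1.32 over CMP (adjusted p = 3.32e-08) and by 1.43 over GMP (adjusted p = 8.18e-09). Sesn3 was higher by 1.04 (adjusted p = 3.78e-06) and 1.22 (adjusted p = 3.59e-07), and Sesn1 by 0.75 (adjusted p = 1.25e-05) and 0.98 (adjusted p = 3.24e-07). By group mean the sestrins and Ccng2 were highest in the cultured cells and lowest in CreER-Raptor GMP. For Sesn1 the CreER-Raptor GMP arrays (6.22 to 6.29) lay under those of CreER-Raptor CMP (6.50 to 6.77), while for Sesn3 and Ccng2 these neighbours overlapped.

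Of the FoxO genes, Foxo1 kept its calls in every alternative fit, while cyclic loess ended those of Foxo3 and Foxo4. Foxo1 was higher in WT Lin- + MCSF (7.28 to 7.44) than in WT CMP (6.46 to 6.78) and WT GMP (6.58 to 6.62), by 0.75 (adjusted p = 1.36e-05) and 0.76 (adjusted p = 1.11e-05), and its other probe set gave 0.67 and 0.62. Foxo3 was lower in Lin- + MCSF, by a difference of -0.35 from CMP (adjusted p = 0.0382) and of -0.48 from GMP (adjusted p = 0.00541). The Foxo3 call against CMP was lost with quantile normalization (adjusted p = 0.155), median centring (0.0784) and cyclic loess (0.445). It was also lost without any 1 of WT CMP replicates 1 to 3 (adjusted p = 0.112, 0.0728 and 0.0618) or of WT Lin- + MCSF replicates 1 to 3 (0.0508, 0.0554 and 0.132). The call against GMP was lost with cyclic loess (-0.26, adjusted p = 0.122). Foxo4 was lower than in GMP by a difference of -0.43 (adjusted p = 0.0128), which cyclic loess also ended (-0.25, adjusted p = 0.142). One Lin- + MCSF array, replicate 2, had Foxo4 at 6.63, among the WT GMP values of 6.55 to 6.63, and the other 3 were at 5.95 to 6.03. Without it the difference from CMP, -0.18 with all arrays (adjusted p = 0.281), was -0.34 (adjusted p = 0.0161); with all arrays it was 0.00 under cyclic loess.

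GMP and CMP of WT mice differed in 2 members, both higher in GMP, against 6.65% of all genes higher; 0 of 10 were lower by limma, against 4.35% of all genes, and none of the negative differences had an unadjusted p under 0.05. With array weights Sesn1 was called lower in GMP (-0.28, adjusted p = 0.0299). Bcl6 was higher in GMP by 0.74 ± 0.19 (SE, adjusted p = 0.0143), without overlap. Klf6 was at 7.50, 7.51 and 7.62 in CMP and at 7.95, 8.02 and 8.48 in GMP, a difference of 0.60 ± 0.18 (SE, adjusted p = 0.0303). Both calls were lost without WT CMP replicate 2 (adjusted p = 0.0671 for Bcl6 and 0.0953 for Klf6) or WT GMP replicate 3 (0.0873 and 0.215). The Klf6 call was also lost without WT CMP replicate 1 (0.092) or replicate 3 (0.0559). Median centring of the arrays moved the share of called genes that were higher from 60.5% to 73.3% in this comparison. Klf6 was also higher in Lin- + MCSF than in CMP, by 0.75 (adjusted p = 0.000605), and did not pass against GMP (0.14, adjusted p = 0.49). Txnip did not pass in any comparison of WT populations (-0.20, -0.18 and 0.02), though cyclic loess made it 0.30 higher in Lin- + MCSF than in GMP (adjusted p = 0.0325) and turned its difference from CMP to 0.10.

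**Figure D4:**
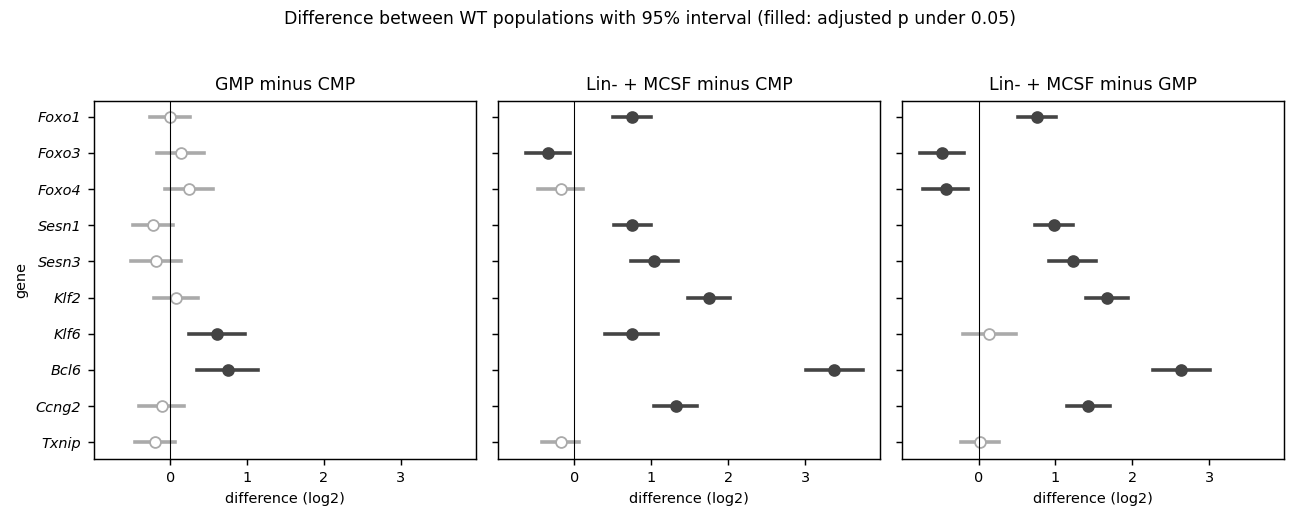
Differences in log2 signal between WT populations for the 10 genes (points) with 95% intervals (bars); filled dark points passed an adjusted p of 0.05 over all genes. Bcl6 and Klf2 lie farthest to the right in both Lin- + MCSF panels, and Foxo3 lies to the left of 0 in both.

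Genes around the members were read from lists of pathway relatives. The relatives by sequence (19 tested) had 5 higher and 1 lower in CreER-Raptor CMP, 6 higher and 3 lower in GMP, and 1 higher and 2 lower in Lin- + MCSF. These are 26.3%, 31.6% and 5.26% higher, against 6.01%, 4.37% and 6.82% of all genes. The lower shares are 5.26%, 15.8% and 10.5%, against 5.44%, 7.53% and 5.73%. Their median changes were 0.19, 0.23 and -0.09, beside -0.01, 0.02 and 0.01 for all genes. Arrdc4, the arrestin-domain relative of Txnip, is like it a known target of MondoA. Its promoter window held the E-box CACGTG at -193 to -188 and no pair of CACGNG letters 5 bases apart. Arrdc4 signal was at 6.55 to 6.85 in WT CMP and 7.81 to 8.29 in CreER-Raptor CMP (1.37 ± 0.16, SE, adjusted p = 3.69e-06). In GMP it was 1.03 higher (adjusted p = 0.000115) and in Lin- + MCSF 0.39 higher, with an adjusted p of 0.0704. Its genotype change in Lin- + MCSF was smaller than in CMP by a difference of -0.98 (adjusted p = 0.0046), while the difference from GMP, -0.65, did not pass (adjusted p = 0.0911). Arrdc3, another arrestin-domain gene, went the other way: -0.19 in CMP (adjusted p = 0.608), -0.60 in GMP (adjusted p = 0.0174) and -1.20 in Lin- + MCSF (adjusted p = 6.49e-06). Its GMP call was lost without CreER-Raptor replicate 2 (adjusted p = 0.065), WT replicate 2 (0.0655) or WT replicate 3 (0.0567). Arrdc1 (-0.13, 0.04 and -0.02 in CMP, GMP and Lin- + MCSF) and Arrdc2 (0.16, 0.32 and 0.03) passed in none of them. Sesn2, the leucine-binding sestrin, was lower in GMP (-0.86, adjusted p = 0.000678) and missed the threshold in CMP (-0.31, adjusted p = 0.266) and Lin- + MCSF (-0.35, adjusted p = 0.0968). Klf4, a monocyte factor, was lower in all 3 populations (-0.80, -2.28 and -1.79; adjusted p = 0.00103, 1.84e-09 and 8.41e-09). Klf9 and Klf3 were higher in CMP (0.67 and 0.74; adjusted p = 0.000798 and 0.000338), as was Klf1, the erythroid Krüppel-like factor (1.29, adjusted p = 0.000918), which is also one of the erythroid markers above. Klf9 was higher in GMP as well (0.78, adjusted p = 0.000191), and Klf1 in Lin- + MCSF (0.85, adjusted p = 0.0115).

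Of 31 tested genes otherwise known as FoxO-activated, 6 were higher and 1 lower in CMP, 3 higher and 1 lower in GMP, and 7 higher and 1 lower in Lin- + MCSF. These are 19.4% higher in CMP, 9.68% in GMP and 22.6% in Lin- + MCSF, and 3.23% lower in each. Of all genes 6.01%, 4.37% and 6.82% were higher and 5.44%, 7.53% and 5.73% lower. The list's median changes were 0.05, 0.02 and 0.08, beside -0.01, 0.02 and 0.01 for all genes. Irs2, the insulin receptor substrate that links receptors to PI3K, was at 6.17 to 6.66 in WT CMP and 8.43 to 8.58 in CreER-Raptor CMP. It rose by 2.11 ± 0.14 (SE, adjusted p = 3e-09) in CMP and by 1.67 ± 0.14 (SE, adjusted p = 6.39e-08) in GMP. In Lin- + MCSF the Irs2 difference was 0.36 (adjusted p = 0.0641), smaller than in CMP by a difference of -1.75 (adjusted p = 3.77e-06). Il7r, the receptor of interleukin 7 and a FoxO1 target in lymphocytes, was higher by 1.66, 1.13 and 0.87 (adjusted p = 1.4e-06, 0.00016 and 0.000664). Its mean was 3.92 in WT CMP and 3.83 in WT GMP, close to the limit of 3.86 under which genes were left out as dim, so the size of the first 2 differences is uncertain. It passed that limit through its level in Lin- + MCSF, the population with the lymphoid transcripts, where the WT arrays were at 8.89 to 9.23. The counts of higher genes of this list in CMP and GMP include Il7r, so they rest in part on a gene near that limit. Pmaip1, which encodes the pro-apoptotic NOXA, was higher in CMP (0.73, adjusted p = 0.00965) and GMP (0.72, adjusted p = 0.0109). Its CMP call was lost without CreER-Raptor replicate 3 (adjusted p = 0.0573), and its GMP call without WT replicate 1 (0.0637) or CreER-Raptor replicate 3 (0.0605). In Lin- + MCSF Tnfsf10, Ccr7 and S1pr1 were higher (0.93, 0.73 and 0.86; adjusted p = 8.03e-05, 0.000874 and 0.00118). Ccr7 and S1pr1 guide lymphocyte traffic and Tnfsf10 encodes the death ligand TRAIL. T and NK cell genes were higher on the same arrays (list means 6.65 to 7.07 in CreER-Raptor, 6.25 to 6.56 in WT), and their part was not tested.

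**Figure D5:**
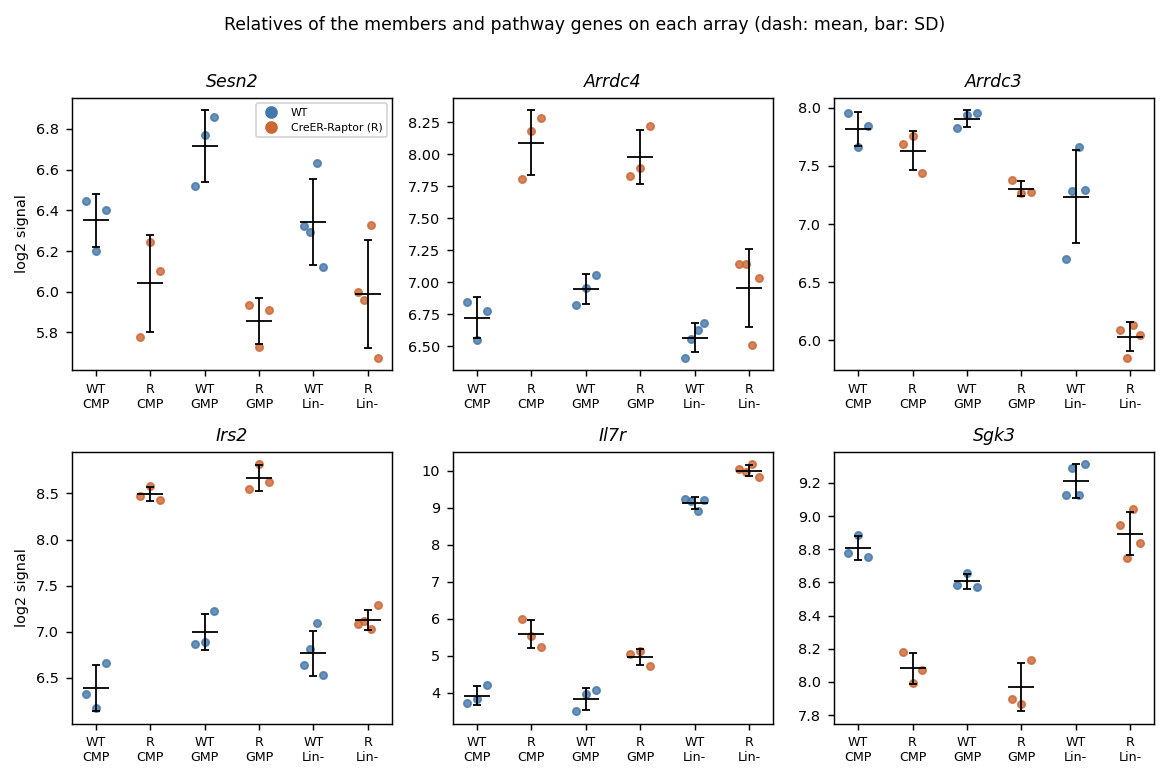
Log2 signal of 6 genes related to the members on each of the 20 arrays (points), with group mean (dash) and SD (bar); blue is WT, orange is CreER-Raptor (R), and each panel has its own vertical axis. Arrdc4 and Irs2 are high in CreER-Raptor CMP and GMP, and Il7r is high in both Lin- + MCSF groups.

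Among 37 tested kinases and regulators upstream of FoxO, 3 were higher and 3 lower in CMP, 2 and 2 in GMP, and 2 and 3 in Lin- + MCSF. These shares, 8.11% each way in CMP and 5.41% each way in GMP, with 5.41% higher and 8.11% lower in Lin- + MCSF, lie near those of all genes given above, so the counts are no result about the list. Median changes were -0.04, -0.01 and -0.01. Irs2 is in this list as well. Sgk3, a PI3K-dependent kinase that can phosphorylate FoxO proteins, was lower in all 3 populations (-0.72, -0.64 and -0.32; adjusted p = 3.96e-05, 0.000208 and 0.0231). Sirt2, a deacetylase that acts on FoxO proteins, was higher in CMP (0.88, adjusted p = 2.76e-06) and Lin- + MCSF (0.29, adjusted p = 0.0295). Mapk9, which encodes the kinase JNK2, was higher in CMP (0.57, adjusted p = 0.00105). Insr, the insulin receptor, was higher (0.34, adjusted p = 0.0212) and Xpo1, the exportin that carries FoxO proteins out of the nucleus, lower (-0.43, adjusted p = 0.00963) in Lin- + MCSF. Mapkap1, an mTORC2 subunit, was lower in GMP (-0.37, adjusted p = 0.0126), a call lost without replicate 2 of either genotype (adjusted p = 0.082 without WT, 0.0739 without CreER-Raptor). In Lin- + MCSF the calls of Sgk3, Sirt2 and Insr were lost when these arrays were fitted alone (adjusted p = 0.113, 0.111 and 0.11), and those of Sirt2 and Insr also with array weights (0.0524 and 0.12). They were also lost with single arrays left out: for Sgk3 WT replicate 2 or 4 or CreER-Raptor replicate 2 or 4 (adjusted p up to 0.0759), for Sirt2 WT replicate 1, 2 or 4 or CreER-Raptor replicate 1 or 2 (up to 0.0891), and for Insr WT replicate 1 or 3 or CreER-Raptor replicate 3 (up to 0.0743).

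Of the 12 GATOR and related genes that connect sestrins to mTORC1, 1 was higher in CMP, 1 higher and 1 lower in GMP, and 1 higher in Lin- + MCSF. Each is 8.33% of the list, near the shares of all genes given above, so the counts are no result about the list. Wdr59, a GATOR2 subunit, was higher in CMP (0.59, adjusted p = 0.00946; 0.0838 without CreER-Raptor replicate 2), and Depdc5, a GATOR1 subunit, was lower in GMP (-0.48, adjusted p = 0.00514). Prkaa2, an AMPK catalytic subunit, was higher in GMP (0.47, adjusted p = 0.0346), and Rragd, a Rag GTPase, in Lin- + MCSF (0.86, adjusted p = 0.000105). The Prkaa2 call was lost with median centring (adjusted p = 0.0653), with cyclic loess (0.059), and without any 1 GMP array other than WT replicate 1 (0.052 to 0.178). Of the 9 thioredoxin and glucose-sensing partners of Txnip, 0 passed in CMP by limma, where the smallest adjusted p was 0.0558 for Nlrp3 (-0.71, unadjusted p = 0.00666) and 2 of the 9 had an unadjusted p under 0.05, with Txnrd2 (0.40). In GMP Nlrp3, the inflammasome sensor that Txnip binds, was lower (-1.58, adjusted p = 7.48e-05) and Slc2a1, the glucose transporter GLUT1, higher (0.57, adjusted p = 0.00868; 0.33, adjusted p = 0.0792, as the mean of its probe sets). Nlrp3 was lower in Lin- + MCSF too (-0.78, adjusted p = 0.0136), a call lost without WT replicate 4 (0.0507) or CreER-Raptor replicate 3 (0.0546) and with these arrays fitted alone (0.0598). Of 7 corepressors and repressed genes of Bcl6, 1 was higher and 1 lower in CMP, 1 lower in GMP, and 2 higher and 1 lower in Lin- + MCSF. Here 1 gene is 14.3% of the list, and 11.1% of the 9 Txnip partners, so counts this small are no result about either list. Cd69, an activation marker that Bcl6 represses, was lower in CMP (-1.07, adjusted p = 0.000171) and GMP (-0.61, adjusted p = 0.0244) and higher in Lin- + MCSF (0.50, adjusted p = 0.0311). Its GMP call was lost without WT replicate 1 (0.0688), WT replicate 2 (0.0999) or CreER-Raptor replicate 2 (0.13). Its Lin- + MCSF call was lost without WT replicate 1, 3 or 4 or CreER-Raptor replicate 2 or 4 (0.0616 to 0.109), with array weights (0.132), and with these arrays fitted alone (0.133). Prdm1, the plasma cell factor repressed by Bcl6, was lower in Lin- + MCSF (-0.75, adjusted p = 0.00308; 0.0541 with these arrays fitted alone).

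For the 6 members whose group means spanned at least 1, the genes of most similar pattern were found by the root mean square difference of the 6 centred group means. For Txnip these were Eid2 (0.116) and Gclm (0.135), and for Sesn1 Washc4 (0.0589) and Parp14 (0.0942). Sesn3 was nearest to 5430427O19Rik (0.0559) and Sft2d2 (0.0938), and Ccng2 to Anxa5 (0.0874) and Chordc1 (0.111). Klf2 was nearest to Gng5 (0.0608) and Ube2n (0.0622), and Bcl6 to Eif4ebp2 (0.183) and F10 (0.209). No 1 gene was nearest to more than 1 member in this list of 12. Only 2 genes were kept per member, so this does not test whether the members' patterns differ.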

How the data were processed

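The 20 arrays were analysed from the deposited series table, whose values are log2 signals per probe set; RMA, Partek 6.6 and limma are listed in the submitters' processing notes with no role for each, and the sources used here do not say whether the authors normalized all arrays at once. Per the labels' protocols, 1 to 5 ng of RNA was amplified with NuGEN WTA Pico v2. Of 41345 probe sets 23521 had 1 gene symbol, 1814 several and 16010 none in the platform annotation; symbols were not changed for the members, and all 10 matched RefSeq. Each gene was represented by its brightest probe set, and genes with a mean under the 25th percentile (3.86) were left out. limma 3.58.1 in R 4.3.3 fitted 1 mean per group over all 20 arrays (14 residual degrees of freedom), with eBayes and Benjamini-Hochberg adjustment over 16638 genes in each of 9 comparisons, called at 0.05; the fit was tested on simulated data. The number of arrays limits the precision. Motifs were searched with Python 3.11.15. The members and gene lists were chosen with earlier results of these data known. The genes named were the 10 members, up to 4 genes of smallest p per list and genotype comparison, and the 2 genes of nearest pattern for each member spanning at least 1. Rptor and the marker genes were named outside that rule after their values were seen. So were, among the relatives, Arrdc1, Arrdc2, Arrdc3 in CMP and GMP, and Sesn2 in CMP and Lin- + MCSF. The same holds for other comparisons of genes the rule named in 1 population. The alternatives tried were other filters, normalizations, probe sets, fits and left-out arrays.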

Additional observations from a re-analysis of the deposited data

Results flagged for a closer look

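The Foxo4 value of WT Lin- + MCSF replicate 2, 6.63, lay far from the other 3 arrays of its group (5.95 to 6.03) by Dixon's test; 1 of 20 member groups with 4 arrays was marked, and chance marks about 1 in 20. The 7 tests of a difference in genotype change between populations that passed were these. Against CMP, the change in Lin- + MCSF differed by 0.73 for Sesn3, by 0.70 for Ccng2 and by -0.78 for Txnip. Against GMP, it differed by 0.62 for Sesn1, by 0.75 for Sesn3, by 0.87 for Ccng2 and by -0.77 for Txnip. Both sets use the same Lin- + MCSF arrays, which also carry the lymphoid and neutrophil transcripts given above.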

How the results depend on the processing

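The count of members called was within 1.5 times its value with all arrays in all 90 alternative fits that kept every array, the replicate block included, which gave 4 members in CMP, 4 in GMP, 0 in Lin- + MCSF and 8 for WT Lin- + MCSF against each progenitor. The replicate numbers did not pair the arrays (correlations of deviations from -0.34 to 0.12). With 1 array left out the members called ran from 2 to 4 in CMP, 3 to 4 in GMP, 0 to 2 for WT GMP against CMP, 1 to 3 for the difference between Lin- + MCSF and CMP, and 2 to 4 for that between Lin- + MCSF and GMP. For single members, 662 of 676 values with other settings kept their side of the threshold, 8 lost it and 6 gained it; with an array left out 450 of 498 kept it, 46 lost it and 2 gained it. Calls of related genes held in 552 of 568 fits with other settings, which for these genes were added after seeing the data, and in 389 of 444 with an array left out. No called value changed sign; 9 and 19 uncalled values did. Genes called among all tested moved by over 1.5 times with array weights: from 1905 to 3048 in CMP, 1980 to 5328 in GMP, 2088 to 1316 in Lin- + MCSF, 1831 to 3995 for WT GMP against CMP, 416 to 1980 for the difference between GMP and CMP, where the higher share went from 26.7% to 40.6%, and 793 to 1330 for that between Lin- + MCSF and GMP. With the compared groups fitted alone they were 899 in Lin- + MCSF, 2852 for WT GMP against CMP and 654 for the difference between GMP and CMP. With an array left out the counts over all genes ranged from 1229 to 1767 in CMP, 1183 to 2086 in GMP, 803 to 1551 for WT GMP against CMP, 228 to 647 for the difference between GMP and CMP and 488 to 842 for that between Lin- + MCSF and GMP. The arrays differed in spread. The SD of an array's deviations from its group means over all tested genes was 0.17 to 0.24 in Lin- + MCSF. It was 0.11 to 0.17 in CMP and GMP, while the main fit used the same spread for all arrays. The part of this in the changed counts was not tested.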
